A study of Mus musculus with 14 samples.

Results

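The 7 genes described here encode the transcription factors through which the circadian clock passes its rhythm on to other genes: Dbp, Tef and Hlf, their antagonist Nfil3, the repressors Bhlhe40 and Bhlhe41, and Ciart, another repressor of the clock. They were picked by gene symbol, with earlier results of these data known, and held 12 of the 45101 probe sets on the array. The array names 18193 genes in all, and the 7 were among the 12945 with enough signal to test. Male mice of C57BL/6, an inbred laboratory strain, gave RNA from their subcutaneous white fat at an age of 12 weeks. In the exercised group (n = 7 arrays) the mice had lived in cages with a running wheel for 11 days, and in the sedentary group (n = 7 arrays) they had not. The labels name no transgene or other agent in either group, say nothing of the hour of collection, and leave unsaid whether arrays and mice match one to one. The p-values therefore reflect only how these samples vary, and that variation may be technical. With no hour given, a shift in the hour or phase of the clock and a change in level cannot be told apart.

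Dbp, Tef and Hlf form the PAR-bZIP family, named after a proline- and acid-rich stretch next to a basic leucine zipper. They bind a DNA element called the D-box as dimers and activate transcription, while Nfil3 (also called E4BP4) binds the same element and represses it. In the core of the clock, the activators Clock or Npas2 pair with Arntl (Bmal1) on another element, the E-box, and turn on the Per, Cry and Nr1d genes as well as Dbp and Tef. Bhlhe40 and Bhlhe41 (Dec1 and Dec2) are basic helix-loop-helix repressors that occupy E-boxes, and Ciart (Chrono) is recruited to Clock and Arntl and inhibits them. Nr1d1 and Nr1d2 repress Arntl, Npas2 and Nfil3. Adipose tissue has such a clock of its own.

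The E-box and the D-box are shown here because they are the elements that these factors share. RefSeq promoter windows of build GRCm38.p6, from 250 bases before to 50 bases after a transcript's start, were held in the table used for 6 of the 7 genes, all but Bhlhe40. The E-box CACGTG, a palindrome searched on both strands, was found in the windows of 3 of these 6 genes (Tef, Bhlhe41 and Ciart), in those of 2 of 12 core clock loop genes (Per1 and Cry1), and in those of 8.09% of all 27025 genes (7.15% of 32851 windows). A window of each of the 3 genes is printed 5′ to 3′ on the gene's strand with the E-box in capitals. Each stretch ends before the first base of the gene's annotated span, which for Ciart and Per3 begins ahead of the transcript start that centres the window.
Ciart, chr3:95882258-95882478, minus strand: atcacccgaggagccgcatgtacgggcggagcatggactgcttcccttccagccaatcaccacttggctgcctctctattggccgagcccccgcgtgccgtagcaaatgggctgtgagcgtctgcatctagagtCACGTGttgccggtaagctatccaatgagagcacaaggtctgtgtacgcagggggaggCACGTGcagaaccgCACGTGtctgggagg
Tef, chr15:81802423-81802672, plus strand: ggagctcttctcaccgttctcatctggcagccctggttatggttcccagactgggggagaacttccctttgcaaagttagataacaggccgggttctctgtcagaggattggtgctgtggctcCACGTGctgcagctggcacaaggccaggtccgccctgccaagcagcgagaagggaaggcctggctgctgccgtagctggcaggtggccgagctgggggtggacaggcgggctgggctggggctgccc
Bhlhe41, chr6:145865421-145865670, minus strand: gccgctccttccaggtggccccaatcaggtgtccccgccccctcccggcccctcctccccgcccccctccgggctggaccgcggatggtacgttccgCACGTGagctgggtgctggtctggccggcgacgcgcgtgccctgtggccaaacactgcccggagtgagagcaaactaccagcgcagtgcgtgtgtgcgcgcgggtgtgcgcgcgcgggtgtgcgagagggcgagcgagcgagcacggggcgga
The Ciart stretch, which ends 29 bases short of that transcript start, held 3 E-boxes, whose first bases lay 116, 58 and 44 bases before the transcript start. The E-box of the Tef window printed lay 127 bases and that of Bhlhe41 153 bases before the start. Tef has a second window, for another transcript and not printed, with 1 E-box 138 bases before that start. The D-box, searched as TTATGTAA on both strands, was in no window of the 6 genes and in those of 1.11% of all genes, and its variant TTACGTAA was in no window of the 6 genes and in those of 0.126% of all genes. Among 12 genes of the core clock loop with a window, Per3 alone held TTATGTAA, at 2 positions 205 and 158 bases before the transcript start. Its stretch, with the D-boxes in capitals, ends 42 bases short of that start.
Per3, chr4:151044708-151044915, minus strand: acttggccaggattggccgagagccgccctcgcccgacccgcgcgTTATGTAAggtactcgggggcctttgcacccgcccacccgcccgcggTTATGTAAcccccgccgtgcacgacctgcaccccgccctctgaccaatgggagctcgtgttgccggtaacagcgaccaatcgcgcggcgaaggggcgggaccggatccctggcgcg
The ROR response element, which the Nr1d and Ror receptors bind, was in no window of the 6 genes, in that of Arntl among the loop genes, and in those of 0.259% of all genes. These matches describe the letters of the windows and do not show binding.

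Signals are probe set intensities on a linear scale, and array medians lay between 531.3 and 617.4. Log2 differences are exercised minus sedentary on the scale log2(signal + 46.7). The adipocyte markers Adipoq (48830 to 69120) and Fabp4 (85540 to 109100) were strong on every array, but others varied more. Lep ran from 1313 to 18010 in sedentary and from 2071 to 6102 in exercised samples. It differed by -1.41 (adjusted p = 0.105), while the other 7 markers tested had positive differences. The mean log2 level of the adipocyte markers was 13.8 on sedentary array 5, 14.48 to 15.12 on the other sedentary arrays and 14.55 to 15.04 on the exercised ones. Skeletal muscle markers varied most, with a summed signal from 11060 to 336400 in sedentary and from 14030 to 893400 in exercised samples. Sedentary array 5 stood apart with a mean log2 level of 13.38 for markers of inflammation and macrophages, where the other 13 arrays had 10.82 to 11.53. Sedentary array 7 had the lowest sedentary level of lymphocyte markers (9.26, against 12 to 13.17 on the other 6). Exercised arrays 5 (9.15) and 7 (10.17) were likewise low in these, against 11.76 to 12.43 on the other 5. Of markers for endothelium (8), fibroblasts (8), nerve (4) and adipocytes (8), 0 were called by limma, and at an unadjusted p under 0.05 there were 0, 1, 1 and 4 with a difference. The Gapdh 3′ to 5′ signal ratio, a measure of RNA integrity, was 0.694 to 0.796 in sedentary and 0.71 to 0.788 in exercised samples.

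Exercised tissue had more Dbp, Tef, Hlf and Ciart messenger RNA and less Nfil3 than sedentary tissue. By limma at an adjusted p under 0.05, 5 of the 7 genes were called, where 5.53% of all genes tested were. Of these 4 rose and 1 fell, where 4.0% of all genes rose and 1.53% fell. Over all genes 518 were called higher and 198 lower, and the split was 547 to 86 when arrays were centred on their medians. Without exercised array 1, 3, 5 or 7 between 309 and 331 genes were higher, and without sedentary array 1, 2 or 3 or exercised array 1, 3, 5, 6 or 7 between 79 and 124 were lower. The median difference was 0.76 over the 7 genes and -0.03 over all genes tested. Bhlhe40 and Bhlhe41 did not pass. Leaving out single arrays left between 3 and 5 of the genes called higher. For 2 genes, Dbp and Ciart, every exercised array was above every sedentary one. Such a gap was seen upwards in 1.95%, downwards in 0.734% and in either direction in 2.68% of all genes. Of the 11 probe sets of the 7 genes that were tested, 7 were called over all probe sets (6 higher and that of Nfil3 lower), where 3.83% of all were called, 2.78% higher and 1.05% lower, and 1.48% of all were higher with no overlap.

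**Figure D1:**
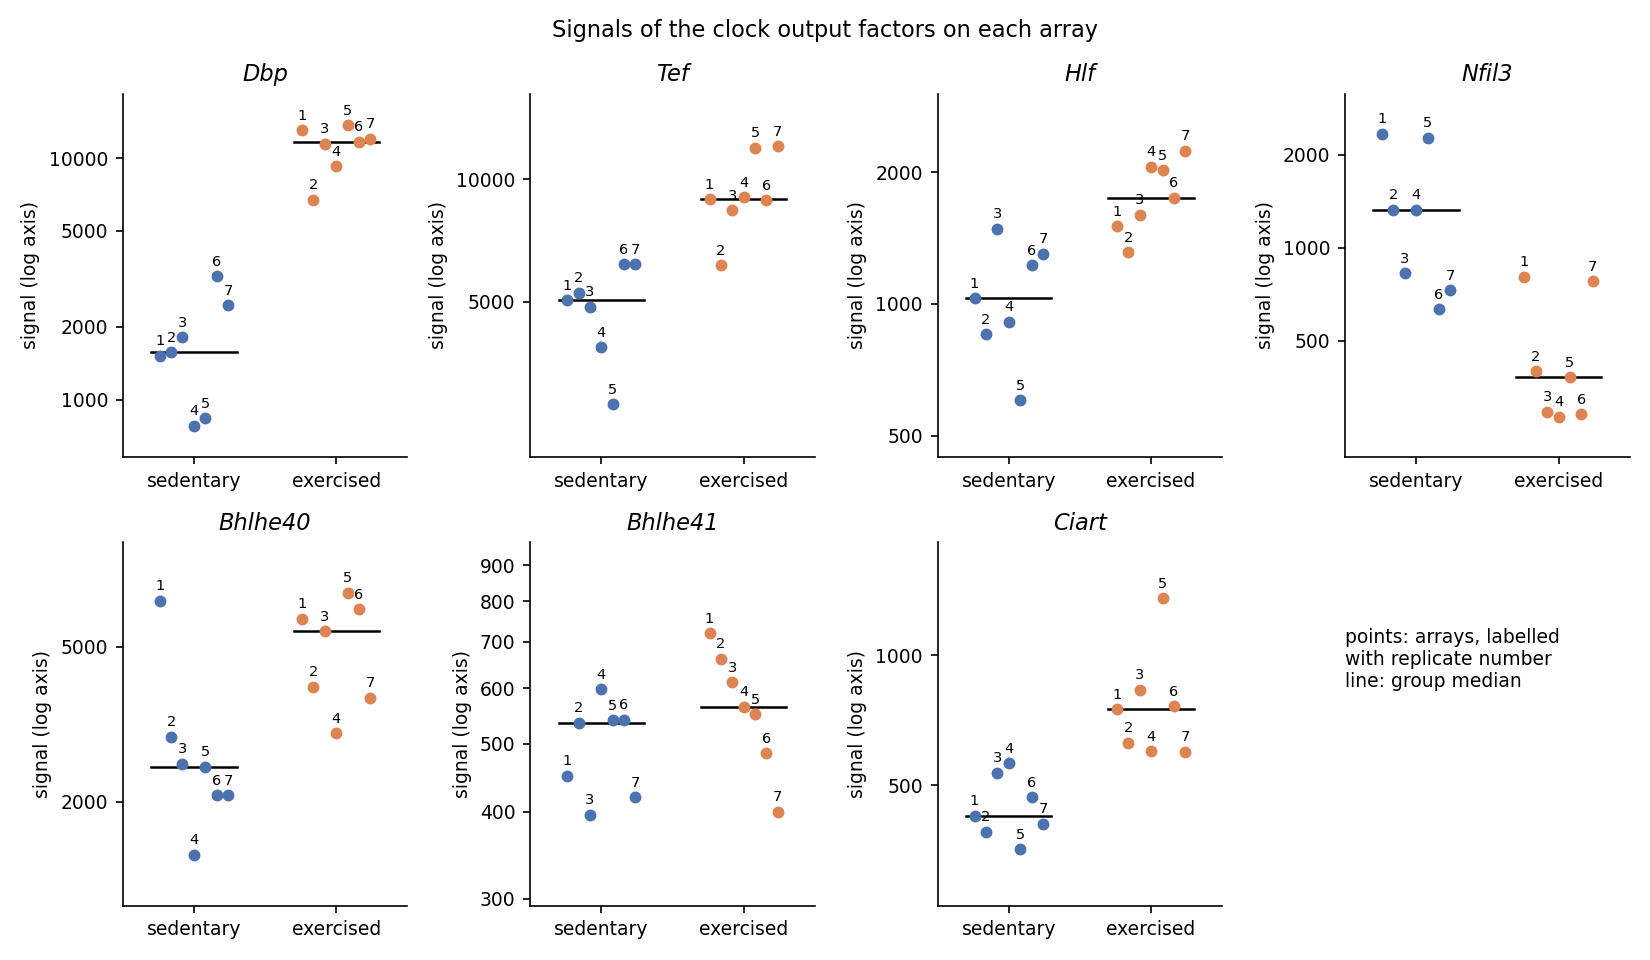
Signals of the 7 genes on each of the 14 arrays, each panel with its own log axis, arrays labelled by replicate number, lines at group medians. The groups are apart for Dbp (779 to 3239 against 6736 to 13734) and Ciart (356 to 562 against 598 to 1352), and overlap for the other genes.

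Dbp, the PAR-bZIP factor with the widest daily swing in many tissues, had the smallest p of all 12945 genes tested and the 20th largest increase. Sedentary signals ran from 779 to 3239 with a median of 1574. Exercised signals ran from 6736 to 13734 with a median of 11702. Every exercised array was thus above every sedentary one, and the means were 1747 ± 875.3 (SD, n = 7) and 11150 ± 2398 (n = 7), a ratio of 6.38. On the log2 scale the rise of Dbp came to 2.76 (SE 0.28, adjusted p = 0.000545). The exact permutation p was 0.000583, the smallest that 7 arrays against 7 can give. Its other probe set ran from 605 to 2481 in sedentary and from 5452 to 13340 in exercised samples and rose by 2.98 (SE 0.27, adjusted p = 0.000201 over all probe sets). Within the sedentary group the signal spanned a wide range, with arrays 4 (779) and 5 (835) lowest and arrays 6 (3239) and 7 (2465) highest. Exercised array 2 (6736) was the lowest of its group.

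Tef, whose name comes from the thyrotrophs of the pituitary, is expressed in most tissues. Its sedentary signals ran from 2798 to 6180 with a median of 5041, and its exercised signals from 6153 to 12055 with a median of 8946. The groups touched at a single array, since exercised array 2 (6153) lay just under sedentary arrays 6 (6177) and 7 (6180). Tef rose by 0.94 (SE 0.18, adjusted p = 0.00746), with means of 4883 ± 1219 and 9354 ± 2075 (n = 7 each). A further Tef probe set rose by 0.85 (SE 0.21, adjusted p = 0.0354 over all probe sets). The remaining Tef probe set spanned 362 to 1075 in sedentary and 631 to 1063 in exercised samples, a difference of 0.34 (SE 0.22, adjusted p = 0.408). The platform marks that further Tef probe set and the main probe set of Dbp with the suffix _s_at, which denotes probes shared by several transcripts.

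Hlf, known in humans as a fusion partner in leukaemia and in mice as a clock output factor of liver and brain, had sedentary signals of 603 to 1486 with a median of 1030. Its exercised signals were 1311 to 2240 with a median of 1748. Of the 7 exercised arrays 6 were above the highest sedentary one, and array 2 (1311) was the exception. Hlf rose by 0.76 (SE 0.18, adjusted p = 0.0221). Its other probe set differed by 0.84 (SE 0.31, adjusted p = 0.144 over all probe sets), with exercised array 2 at 310 and the other 6 exercised arrays between 1001 and 1635. Without exercised array 5 or array 7 the call on Hlf ended (adjusted p = 0.0504 and 0.0532), and it ended with the muscle markers as a covariate (0.69, SE 0.21, adjusted p = 0.132).

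**Figure D2:**
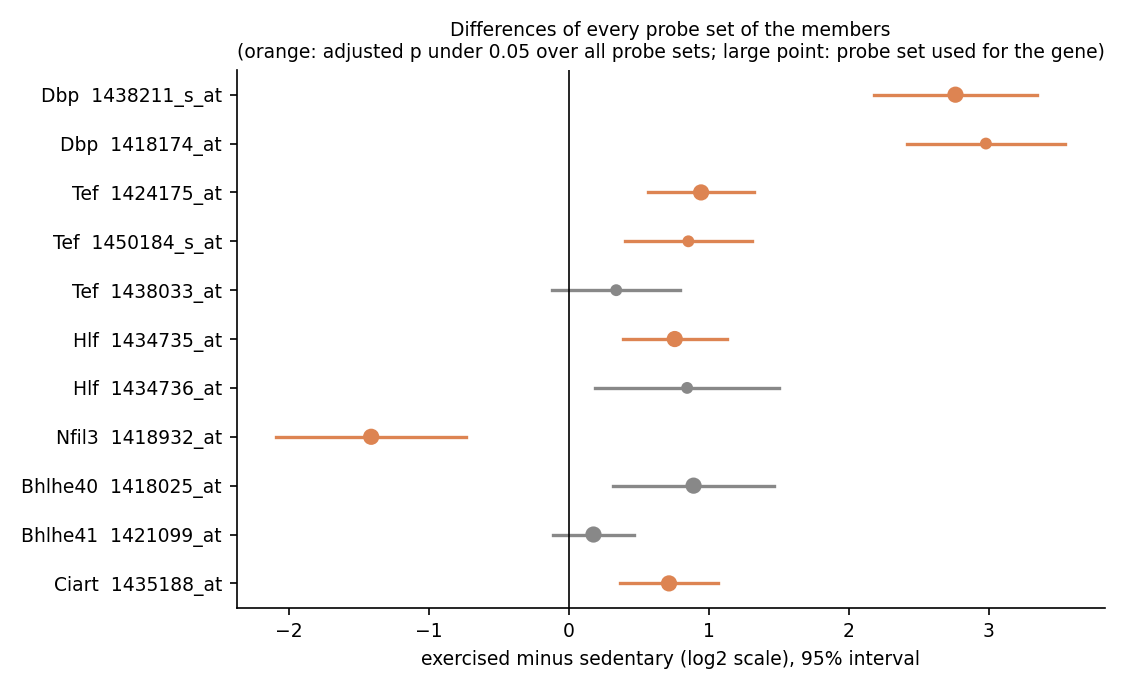
Log2 differences, exercised minus sedentary, of the 11 probe sets of the 7 genes that passed the filter, with 95% intervals from limma. All differences are above 0 except that of Nfil3 at -1.41, and the smallest Tef difference (0.34) and that of Bhlhe41 (0.18) have intervals that include 0.

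Nfil3, the D-box repressor, which is also needed for natural killer cell development, moved the other way and had the 7th largest decrease of all genes tested. Sedentary signals ran from 634 to 2342 with a median of 1328. Exercised signals ran from 284 to 807 with a median of 381. Of the exercised arrays 5 were below the lowest sedentary one (284 to 400), while arrays 1 (807) and 7 (782) lay within the sedentary range. Nfil3 fell by 1.41 (SE 0.32, adjusted p = 0.0205), with means of 1353 ± 707.2 in sedentary and 462.6 ± 231.5 in exercised samples (n = 7 each). The exercised median was under the filter of 389.7, so the size of the fall depends on the pseudocount. With the pseudocount at the 5th percentile the difference was -1.46, and at the 25th percentile it was -1.19. Sedentary arrays 1 (2342) and 5 (2272) were highest, and sedentary arrays 6 (634) and 7 (730), which had the most Dbp of their group, were lowest. Nfil3 is also made by immune cells, and in bulk tissue fewer cells of a type and less RNA per cell cannot be told apart. All 17 inflammation and macrophage markers tested had negative differences, and 2 of them, Tnf and Tyrobp, fell. Their summed signal was 107400 to 267300 in sedentary and 92230 to 117000 in exercised samples, and no marker was at 0 on any array. Of these markers 2 had a sedentary median and 3 an exercised median under the filter of 389.7. Il6, at 131.8 to 198.3 in exercised samples, was tested only because of its sedentary level. All 10 lymphocyte markers tested had negative differences too, with 0 called by limma, 1 lower at an unadjusted p under 0.05, and summed signals of 19080 to 136200 in sedentary and 17080 to 72000 in exercised samples. Over all 12945 genes tested, 7123 had negative differences, 1.53% were called lower by limma and 10.5% were lower at an unadjusted p under 0.05. Without sedentary array 5 Nfil3 fell by 1.27 (SE 0.32, adjusted p = 0.0312). With the mean of the inflammation and macrophage markers as a covariate the difference was -1.17 (SE 0.33, adjusted p = 0.0583). With the muscle markers it was -1.31 (SE 0.39, adjusted p = 0.118), so both covariates ended the call.

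Set against Nfil3 on the same array, each activator differed more than alone, as opposite signs require. Scaling of the array as a whole largely cancels in such a difference. The log2 difference of Dbp minus that of Nfil3 was 4.17 (SE 0.56), with exercised arrays 3.50 to 4.76 and sedentary arrays -1.76 to 1.91 around the sedentary mean. The value for Tef minus Nfil3 was 2.36 (SE 0.45), with exercised arrays from 1.47 to 2.88 and sedentary arrays from -1.64 to 1.26. For Hlf minus Nfil3 it was 2.17 (SE 0.48), with exercised arrays from 1.09 to 2.90 and sedentary arrays from -1.60 to 1.13, so that only this pair's groups overlapped among the 3. No test was made of these values, since the genes were chosen with earlier results known. The 3 values rest on the same Nfil3 measurements and are not independent of each other.

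**Figure D3:**
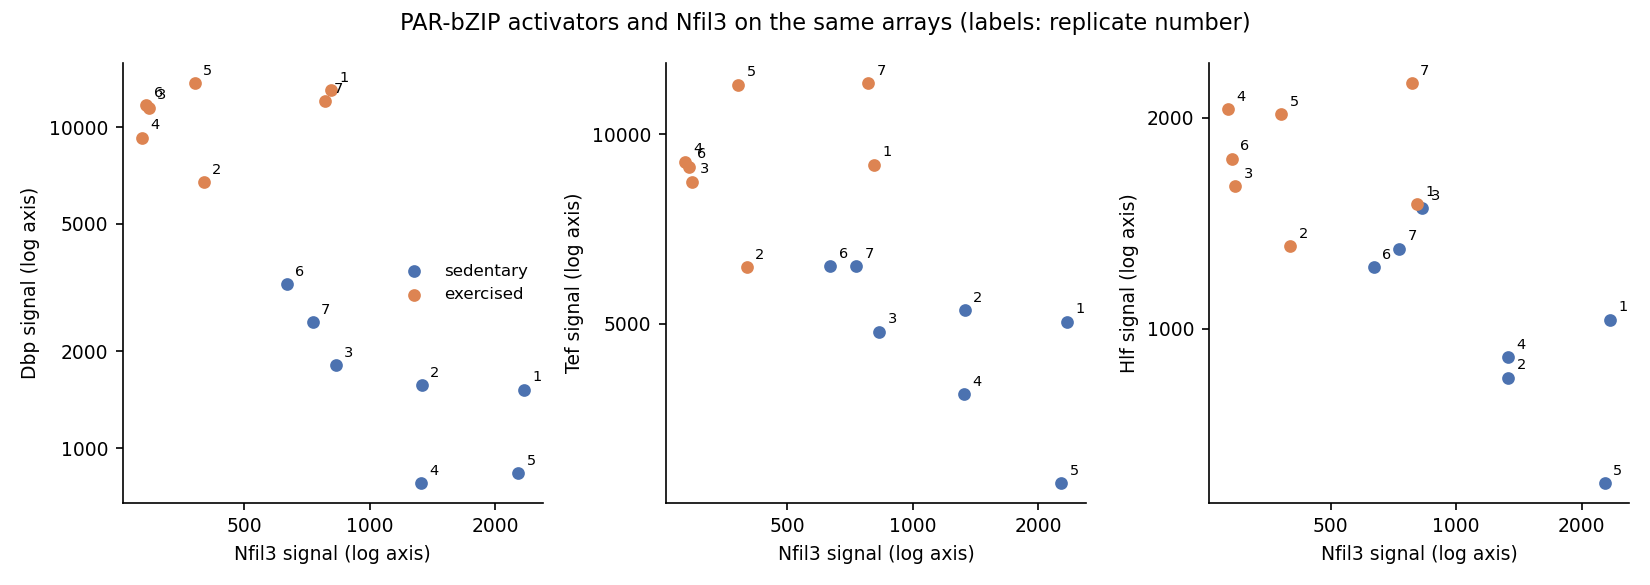
Signals of Dbp, Tef and Hlf (vertical, log axis) against that of Nfil3 (horizontal, log axis), with each point 1 of the 14 arrays labelled by replicate number. Sedentary arrays 6 and 7 lie nearest the exercised arrays for Dbp (3239 and 2465), and exercised arrays 1 and 7 keep high Dbp (13047 and 12043) at Nfil3 signals of 807 and 782.

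Within groups, 6 correlations of Dbp with Tef, Hlf and Nfil3 were computed on log2 values (n = 7 arrays each). Among sedentary arrays Dbp went with Tef (Pearson r = 0.893, exact permutation p = 0.00675, adjusted over the 6 p = 0.0405; Spearman rho = 0.821, exact permutation p = 0.0341, adjusted p = 0.199). Without the 2 arrays farthest from the median of Dbp that r was 0.952. Among exercised arrays r for Dbp and Tef was 0.806 (exact permutation p = 0.0327, adjusted p = 0.089; rho = 0.643, exact permutation p = 0.139, adjusted p = 0.208), and 0.512 without the 2 farthest arrays, so it rested in part on those. For Dbp and Nfil3 r was -0.747 among sedentary arrays (exact permutation p = 0.05, adjusted p = 0.089; rho = -0.75, exact permutation p = 0.0663, adjusted p = 0.199), with -0.809 without the 2 farthest. It was 0.301 among exercised arrays (exact permutation p = 0.566, adjusted p = 0.566; rho = 0.429, exact permutation p = 0.354, adjusted p = 0.424; r = 0.343 without the 2 farthest). The difference between the groups was not tested. For Dbp and Hlf r was 0.74 in sedentary (exact permutation p = 0.0593, adjusted p = 0.089; rho = 0.679, exact permutation p = 0.11, adjusted p = 0.208; r = 0.875 without the 2 farthest) and 0.489 in exercised samples (exact permutation p = 0.281, adjusted p = 0.337; rho = 0.286, exact permutation p = 0.556, adjusted p = 0.556; r = 0.145 without the 2 farthest). Only the Pearson value of Dbp with Tef in sedentary tissue passed 0.05 after adjustment, and its rank correlation did not.

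The DEC repressors did not pass the test. Bhlhe40, which also responds to hypoxia, cytokines and hormones, had sedentary signals of 1463 to 6563 with a median of 2464. Its exercised signals were 2996 to 6870 with a median of 5478. Sedentary array 1 (6563) lay far above the other 6 sedentary arrays (1463 to 2937), and without it every exercised array would be above every sedentary one. Bhlhe40 differed by 0.89 (SE 0.27, 95% interval 0.31 to 1.47, adjusted p = 0.0699), and by 1.11 without sedentary array 1 (SE 0.20, adjusted p = 0.00871), which passes. Leaving out exercised array 4 (2996) also brought it past the threshold (1.003, SE 0.27, adjusted p = 0.047). With the muscle markers as a covariate the difference was 0.66 (SE 0.31, adjusted p = 0.368). Sedentary array 1 also had the highest Nfil3 signal (2342).

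Bhlhe41, the closest relative of Bhlhe40 and known for its link to sleep length, had signals of 396 to 598 in sedentary and 400 to 720 in exercised samples, with medians of 536 and 565. Of the exercised arrays 3 were above the highest sedentary one, and the other 4 lay within the sedentary range. Bhlhe41 differed by 0.18 (SE 0.14, 95% interval -0.12 to 0.47, adjusted p = 0.478). Its other probe set had a mean signal of 60.5 over all arrays, under the filter of 389.7, and was not tested. The interval does not exclude a small rise.

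Ciart, the inhibitor of Clock and Arntl with 3 E-boxes in the window printed, was the other gene whose groups did not overlap. Sedentary signals ran from 356 to 562 with a median of 426, and exercised signals from 598 to 1352 with a median of 750. Exercised array 5 (1352) was well above the next one (832). That array was also the one with the lowest level of lymphocyte markers in its group, whose part in the result was not tested. Ciart rose by 0.72 (SE 0.17, adjusted p = 0.0236), with an exact permutation p of 0.000583. Without exercised array 5 it rose by 0.58 (SE 0.13, adjusted p = 0.0276). The call ended without exercised array 3 (adjusted p = 0.0525), without sedentary arrays 5 and 7 (0.64, SE 0.18, adjusted p = 0.0594), with the muscle markers as a covariate (0.66, SE 0.20, adjusted p = 0.135) and with the inflammation and macrophage markers as a covariate (0.63, SE 0.18, adjusted p = 0.0628).

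**Figure D4:**
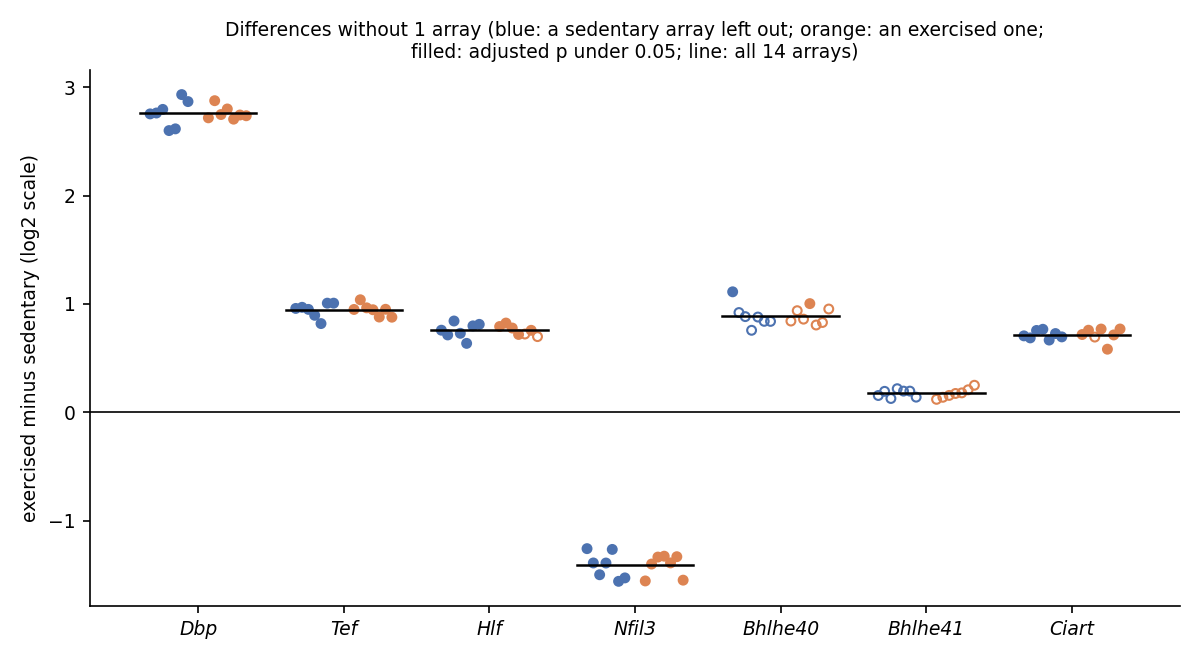
Log2 differences of the 7 genes when each of the 14 arrays was left out in turn, with filled points past the adjusted p threshold of 0.05 and lines at the value from all arrays. Dbp stays between 2.60 and 2.93 and Nfil3 between -1.56 and -1.26, while Bhlhe40 passes only without sedentary array 1 or exercised array 4.

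Markers of skeletal muscle, a tissue that also expresses these factors, differed between arrays. All 20 muscle markers tested had positive differences, 0 were called by limma and 16 were higher at an unadjusted p under 0.05. Of all 12945 genes tested, 5822 had positive differences and 11.3% were higher at an unadjusted p under 0.05. No muscle marker was at 0 on any array, and 3 had a sedentary median under the filter. Markers of brown and beige fat differed as well, with 5 of 8 that rose, where 4.0% of all genes rose. Their summed signals were 4594 to 54390 in sedentary and 53050 to 162700 in exercised samples, and their part in the results was not tested. With the muscle mean as a covariate, Dbp (2.71, SE 0.33, adjusted p = 0.00594) and Tef (0.96, SE 0.22, adjusted p = 0.045) still rose. They were the only 2 of the 7 genes called. Over all 12945 genes tested, 171 were higher and 36 lower with that covariate, against 518 and 198 without it.

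Transcripts of the core clock loop differed in both directions. Of 13 loop genes tested, 5 rose (Per1, Per2, Per3, Nr1d1 and Nr1d2) and 2 fell (Arntl and Npas2), with 4.0% and 1.53% of all genes as the background and a median of 0.28 in the list. Per1, Per3, Nr1d1, Clock and Cry1 lie outside the rule for named genes and are named after their values were seen. Npas2 had sedentary signals of 465 to 970.4 and exercised signals of 40.3 to 270.6, and fell by 1.87 (SE 0.28, adjusted p = 0.00228). All its exercised signals were under the filter of 389.7, so Npas2 was tested only because of its sedentary level. Its lowest exercised signal was under the pseudocount of 46.7, so the size of the fall is uncertain. Nr1d2, the repressor of Arntl and Nfil3, ran from 2591 to 7486 in sedentary and from 9079 to 14010 in exercised samples. It rose by 1.57 (SE 0.20, adjusted p = 0.00143), and its other probe set by 0.91 (SE 0.16, adjusted p = 0.00524 over all probe sets). Arntl fell by 1.28 (SE 0.20, adjusted p = 0.00304), from 1433 to 2715 in sedentary to between 554.5 and 1518 in exercised samples, although its other probe set differed by -0.38 (SE 0.16, adjusted p = 0.195). Per2 ran from 540.7 to 899.4 and from 999.7 to 1836, and rose by 0.84 (SE 0.14, adjusted p = 0.00462). Its other probe set rose by 0.52 (SE 0.14, adjusted p = 0.0458 over all probe sets). Per3, the loop gene with D-boxes in its window, had means of 1261 ± 703.6 and 2838 ± 629.6 (n = 7 each) and rose by 1.29 (SE 0.29, adjusted p = 0.0198). Clock (-0.38, adjusted p = 0.102) and Cry1 (-0.37, adjusted p = 0.167) did not pass. Dbp had a larger difference than any of the 13 loop genes in either direction. With the muscle markers as a covariate 3 loop genes rose and 2 fell, where 171 of all 12945 genes rose and 36 fell.

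**Figure D5:**
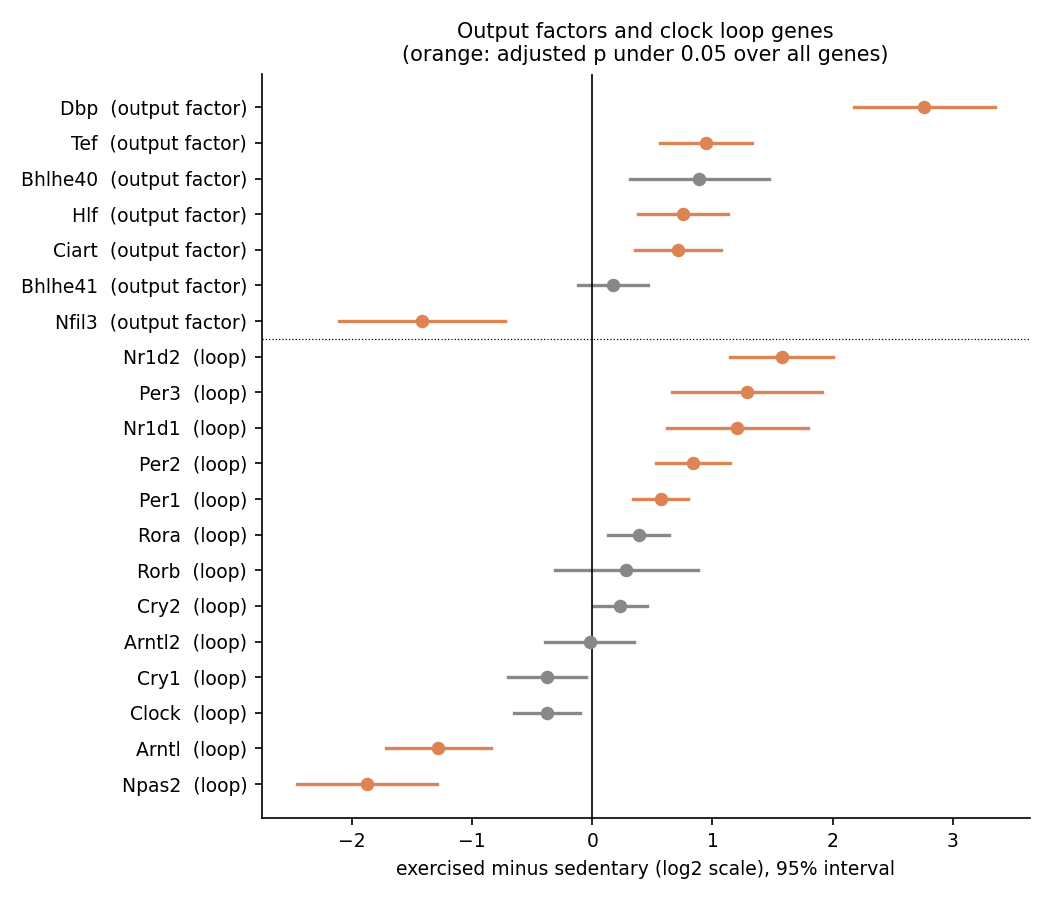
Log2 differences with 95% intervals from limma for the 7 output factors (above the dotted line) and 13 core loop genes (below it). Genes past the adjusted p threshold of 0.05 are orange, and they run from Dbp at 2.76 to Npas2 at -1.87. All exercised Npas2 signals were under the filter of 389.7.

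Likeness to Dbp was measured by the correlation, across all 14 arrays, of deviations from each group's own mean, so that the group difference itself plays no part. Of 12944 other genes the most alike were Ctnna1, an adhesion protein (0.93), Pank2, a pantothenate kinase (0.91), and Polr3gl, a subunit of RNA polymerase III (0.91). None of these passed the test between groups (differences of 0.21, 0.01 and 0.22). Nr1d1 and Per3 followed in ranks 4 and 5, both at 0.91, and Nr1d2 in rank 7 at 0.90, which were looked up after the ranking was seen. Of the other output factors, Tef stood at 0.84, Hlf at 0.68, Ciart and Bhlhe40 at 0.22, Bhlhe41 at -0.35 and Nfil3 at -0.44. Of the other loop genes called, Per2 stood at 0.19, Per1 at 0.01, Npas2 at -0.31 and Arntl at -0.52. For Nfil3 the most alike were Pinx1, a telomerase inhibitor (0.87), Gas7 (0.86) and Prorsd1 (0.85), and none of the 3 passed the test between groups. These values are descriptions, and arrays share depth of signal and tissue makeup.

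Of 15 genes reported elsewhere as targets of the PAR-bZIP factors, 11 were tested, of which 1 rose and 0 fell by limma, where 4.0% of all genes rose. At an unadjusted p under 0.05, 4 of the 11 were higher and none lower, where 11.3% of all genes were higher and 10.5% lower. The list's median was 0.22, and that of all genes -0.03. The gene that rose was Ppara, the nuclear receptor that drives fatty acid oxidation. It ran from 451.5 to 1240 in sedentary and from 1822 to 4957 in exercised samples and rose by 1.76 (SE 0.24, adjusted p = 0.00168), with its other probe sets at 2.26 and 2.11. Acot4, a peroxisomal acyl-CoA thioesterase, differed by 0.82 (SE 0.25, adjusted p = 0.0673). With a sedentary mean of 288.5 under the filter of 389.7 and an exercised mean of 517, Acot4 was tested only because of its exercised level. Acot4 is 1 of the 4 counted above, so that count rests in part on the filter. Its mitochondrial relative Acot2 differed by 0.37 (SE 0.14, adjusted p = 0.145), with another probe set that rose by 0.44 (SE 0.10, adjusted p = 0.0216 over all probe sets). Lpl, lipoprotein lipase, differed by 0.15 (SE 0.07, adjusted p = 0.211).

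The calls in the remaining lists stand against 5.53% of all genes called, and their unadjusted counts against the 11.3% higher and 10.5% lower given above. Of 13 kinases, ligases and cofactors of the clock tested, 0 were called by limma, and at an unadjusted p under 0.05 there were 2 with higher and 1 with lower signal. They included Usp2, a rhythmic deubiquitinase, at 1.05 (SE 0.30, adjusted p = 0.0501; another probe set at 0.56), Csnk1e, a kinase of the period proteins, at 0.27, Tipin at -0.21 and Timeless at -0.34. Among 9 other transcripts that are rhythmic in many tissues 2 were called. Tspan4 rose by 0.49 (SE 0.11, adjusted p = 0.0236) and Cdkn1a, a cell cycle inhibitor, fell by 1.01 (SE 0.15, adjusted p = 0.00228), while Lonrf3 differed by -0.45 (adjusted p = 0.161; another probe set fell by 0.89, adjusted p = 0.00985 over all probe sets). Of 8 helix-loop-helix relatives of the DEC factors tested 1 was called. Id1 rose by 0.52 (SE 0.14, adjusted p = 0.0419), and Id2 differed by -0.46 (SE 0.13, adjusted p = 0.052; other probe sets at -0.07 and -0.10), Hey1 by 0.38 and Hes6 by -0.20. Of 5 C/EBP genes tested, leucine zipper relatives of the PAR-bZIP factors, 0 were called by limma. At an unadjusted p under 0.05, 2 were higher. Cebpa differed by 0.43 (SE 0.15, adjusted p = 0.108) and Cebpb by 0.39 (another probe set at 0.29). Cebpd differed by -0.20, although its other probe set was at 0.25, and Ddit3 by -0.17 (another probe set at -0.02).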

How the data were processed

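RNA of 14 adipose samples was hybridised to Affymetrix arrays after biotin labelling, per the labels' protocols. The authors deposited linear intensity values, for which the submitters' processing notes name MAS5. Its version and settings were not given in the sources used. In the deposited table the mean of each array, leaving out 2% at each end, was 1500, so differences in total RNA are not kept.

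Tests used log2(signal + 46.7), with the 10th percentile of all values as the pseudocount, which understates changes of weak genes. Symbols came from the platform annotation (34945 probe sets with 1 symbol, 932 with several, 9160 with none; 64 controls left out) and were updated for 34741 through Entrez identifiers. The probe set of highest mean stood for each gene, and genes whose mean was under 389.7, the 40th percentile of means, were not tested. Groups and replicate numbers came from the sample titles. The test between groups was that of limma 3.58.1 (R 4.3.3; lmFit, then eBayes with a trend), two-sided, adjusted by Benjamini-Hochberg over 12945 genes, or over 27027 probe sets where so stated. Exact permutation tests between groups used all 3432 assignments of arrays, two-sided, and are not adjusted. Those of the 6 within-group correlations used all pairings of 7 arrays and are adjusted over the 6. The code was tested on simulated data. Alternatives changed scaling, pseudocount, filter, probe set rule, variance trend, array weights, covariates and the arrays used.

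The named genes were the 7 members, up to 4 genes of smallest p from each of 6 lists, and the 3 genes most alike to Dbp and to Nfil3. Members and lists were chosen with earlier results of these data known. Precision is limited by how many arrays there are.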

Additional observations from a re-analysis of the deposited data

Results flagged for a closer look

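Ciart on exercised array 5 had a signal of 1352, where the next highest exercised array had 831.9. The gap took up 0.6 of the group's range on the log2 scale, above the limit of 0.568 for 7 samples. Of 14 groups examined (7 genes in 2 groups) this was the 1 that stood out, and chance gives about 1 in 20. Ciart still rose without that array.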

How the results depend on the processing

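Over 28 alternatives no difference of the 7 genes changed sign. Dbp was called in all 28, Tef in 27 of 28, Nfil3 in 26 of 28, Hlf in 23 of 28 and Ciart in 22 of 27, Bhlhe40 in 2 of 28 and Bhlhe41 in 0 of 27 (Bhlhe41 and Ciart were under the filter at the 60th percentile). Averaging probe sets gave Hlf 0.80 (adjusted p = 0.057). With the muscle covariate Hlf was 0.69, Nfil3 -1.31 and Ciart 0.66, and with the inflammation covariate Nfil3 was -1.17 and Ciart 0.63. Without sedentary arrays 5 and 7 Ciart was 0.635, and no other of the 7 genes changed its call. Leaving out single arrays gave 0.64 to 0.84 for Hlf, 0.76 to 1.11 for Bhlhe40 and 0.58 to 0.77 for Ciart. Members called higher were 2 and called lower 0 with the muscle covariate, and called lower 0 with the inflammation covariate. Loop genes called higher were 3 with the muscle covariate and 3 with the Gapdh ratio as a covariate (chosen after seeing the data), and called lower 1 under the filter at the 60th percentile, where fewer genes were tested. The cause of the other changes was not tested.

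With the replicate block, 1 member was called higher (Dbp) and 1 lower, Tef was 0.94 (adjusted p = 0.053), Hlf 0.76 (adjusted p = 0.0689) and Ciart 0.72 (adjusted p = 0.0975). It gave 2 loop genes higher, and 136 genes higher and 25 lower over all genes. Deviations of same-numbered arrays had correlations of -0.425 to 0.381, and 4 of 14 arrays correlated best with their own number. These values cannot settle whether same-numbered arrays share more than a number.

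Over all genes, 171 were higher and 36 lower with the muscle covariate, 304 and 92 with the Gapdh ratio, 86 lower when centred on medians and 398 lower with array weights. Without single arrays 309 to 591 were higher and 79 to 262 lower. The differences of changes against Nfil3 moved by less than 1 SD of single arrays in all 28 alternatives, a limit wider than their SE. They ran from 3.64 to 4.49 for Dbp, from 1.89 to 2.57 for Tef and from 1.72 to 2.36 for Hlf.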
